A study of Oryza sativa Japonica Group with 4 samples.

Results

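The genes described here are 5 rice genes listed as cytochrome P450 enzymes of diterpenoid metabolism: CYP99A2, CYP99A3, CYP71Z7, CYP701A8 and CYP76M7. They were found by matching these names, with case and an Os prefix ignored, to the symbols and synonyms of a probe set table and a gene reference table. All 5 of 5 names matched a gene with a probe set of its own, among 17905 genes so measured. The genes had been chosen by their measured signals and log2 ratios on the same 4 arrays, in which some of them differed, so these values are a description and support nothing by themselves. The name CYP76M7 led to LOC4341447, and since it is not settled that its probe set measures CYP76M7, its values are given under LOC4341447.

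Panicles of Oryza sativa Japonica Group, cultivated rice, were profiled on Affymetrix expression arrays in 4 groups of 1 array each. The groups were POLA RNAi lines of the T2 generation at ripening, wild type at ripening, the polaris (pola) mutant at meiosis, and wild type at meiosis. The labels write RNAi lines in the plural, and the RNAi line below stands for this 1 pooled sample. Ripening panicles were taken 10 to 15 days after pollination and meiotic panicles at the early to late meiotic stage. Each array held RNA pooled from 20 panicles of 10 plants grown in a greenhouse, so a pool is 1 sample and no difference below has a replicate check or a test. The promoter of the RNAi construct, the number of independent RNAi lines and the allele of the mutant are not stated by the labels. The level of the targeted gene itself was not analysed here.

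Labdane-related diterpenoids of rice include the phytoalexins momilactone, phytocassane and oryzalexin, which accumulate in leaves after fungal attack and, for momilactones, also in husks and roots. Copalyl diphosphate synthases (CPS genes) and kaurene synthase-like enzymes (KSL genes) fold a common plastid precursor into ring skeletons, and P450s then add oxygen. Gibberellins are made by a parallel branch with its own CPS, KS and P450 genes. Many phytoalexin genes of rice lie in gene clusters, so that a P450 gene often neighbours the synthase whose product it oxidizes.

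Values are MAS5 signals, intensities on a linear scale that the authors scaled to a common mean. The arrays had different dim ends: the median signal was 65.7 on the RNAi array against 163 on the wild-type array at ripening, and 51.8 on the mutant array against 124 on the wild-type array at meiosis. Controls for sequences not from rice, 87 probe sets in all, had a median of 7.99 on the RNAi array and 52.6 on its wild-type array, and 5.36 on the mutant array and 44.3 on its wild-type array. In log2 ratios these controls had medians of -1.08 in the RNAi comparison and -0.99 in the mutant comparison, each over wild type, so probe sets with no rice target were themselves near 2-fold lower in these comparisons. The ratio of 3' to 5' signal of the rice GAPDH control, a sign of RNA quality, was 3.32 on the RNAi array against 2.01 on its wild-type array, and 4.22 on the mutant array against 2.04 on its wild-type array, and its part in the genotype comparisons was not tested. Signals below 163, the highest array median, are treated as dim. For a gene past 2-fold whose lower signal is dim, the text gives a lower bound on the fold against 163, or the log2 ratio with signals below 163 raised to it and no pseudocount. A log2 ratio is the log2 of the ratio of signals after adding 23.4 to each. A gene was kept in a comparison when its higher signal was no lower than the median of that array. Kept genes with a log2 ratio of 1 or more, or -1 or less, are counted as 2-fold different.

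At ripening, 4 of the 5 genes were bright on the RNAi array and the wild-type array alike, and at meiosis the same genes were dim in the mutant and dim or moderate in wild type. CYP99A2 and CYP99A3 belong to the momilactone pathway. CYP99A3 (LOC4335091), which oxidizes the momilactone precursor syn-pimaradiene, read 646 in RNAi panicles and 942 in wild type at ripening; at meiosis it read 5.26 in the mutant against 282 in wild type. CYP99A2 (LOC4335096), a close relative that acts on the same diterpene, read 1119 in RNAi panicles and 859 in wild type at ripening; at meiosis it read 5.65 in the mutant against 134 in wild type. The mutant array was the lowest for both, at the level of its controls not from rice, and the ripening arrays were the highest. The order of the upper 2 arrays differed between the genes, with the RNAi line first for CYP99A2 and wild type first for CYP99A3.

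CYP71Z7 (LOC4329726), a hydroxylase of ent-cassadiene in phytocassane synthesis, read 6178 in RNAi panicles and 2830.15 in wild type at ripening; at meiosis it read 31.5 in the mutant against 81.2 in wild type. Both ripening signals lay above the 94th percentile of their array, at 97.5 in RNAi panicles and 94.6 in wild type, while both meiotic signals were below the median of theirs. LOC4341447, the gene listed under the name of CYP76M7, another phytocassane enzyme, read 5.18 in RNAi panicles and 164 in wild type at ripening; at meiosis it read 1.35 in the mutant against 72.4 in wild type. It was dim throughout: its highest signal barely reached the dim limit, and on the RNAi and mutant arrays it lay below the median of the controls not from rice.

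CYP701A8 (LOC4341343), a paralog of the gibberellin enzyme ent-kaurene oxidase that hydroxylates phytoalexin precursors instead, read 2372 in RNAi panicles and 2487 in wild type at ripening; at meiosis it read 77.2 in the mutant against 107 in wild type. The ripening signals lay within 1.05-fold of each other, and both were far above the meiotic signals. For 4 of the 5 genes both ripening signals were higher than both meiotic signals, and in all 5 the mutant had the lowest signal. The mutant array also had the lowest median and control level of the 4 arrays. By percentile of their array, CYP71Z7 and CYP701A8 stood higher in the mutant, at 42.1 and 55.2, than in meiotic wild type, at 40.6 and 46.6. CYP99A2, CYP99A3 and LOC4341447 stood lower in the mutant by percentile too. The plot of signals by array shows the order of the signals beside the level of the controls.

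**Figure D1:**
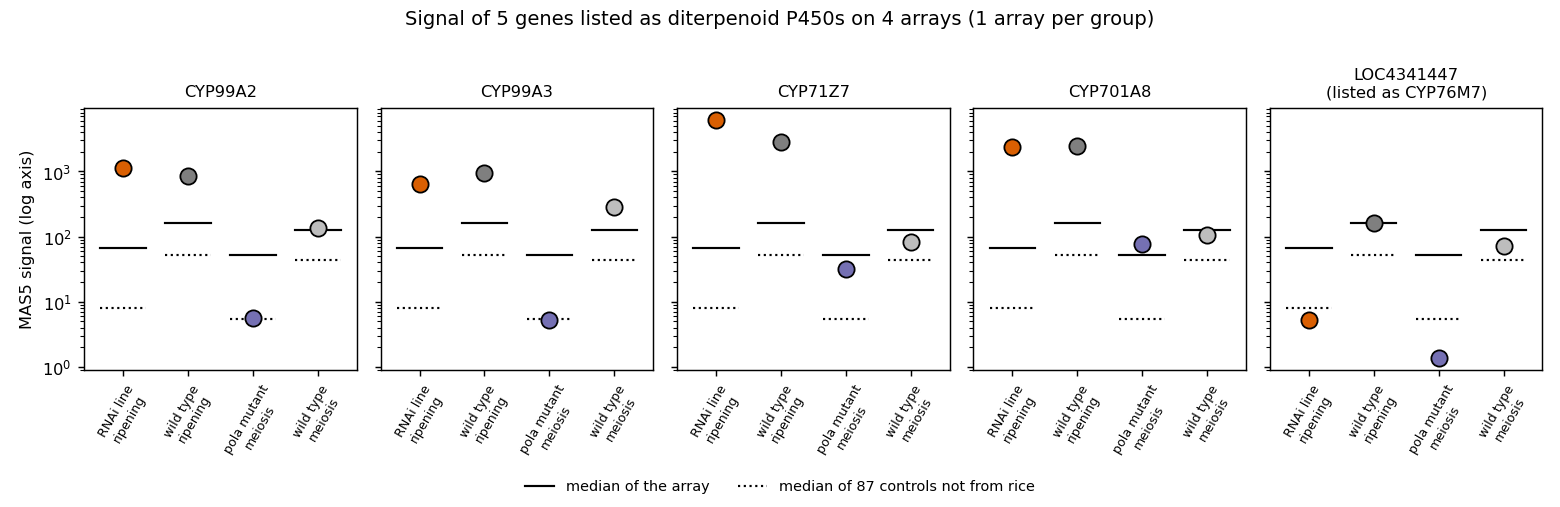
MAS5 signal (log axis) of the 5 genes on the 4 arrays, 1 point per array, with the median of each array as a solid line and the median of its 87 controls not from rice as a dotted line. CYP99A2, CYP99A3, CYP71Z7 and CYP701A8 are between 646 and 6178 at ripening, and CYP99A2 and CYP99A3 lie on the control level of 5.36 on the mutant array.

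The comparison of the stages in wild type asks how these genes differ between grain filling and meiosis. All 5 genes were kept, and 4 passed 2-fold with the higher signal at ripening and none the other way, where 15.4% of 16187 kept genes were higher and 16.4% lower. CYP71Z7, CYP701A8 and LOC4341447 lay below the meiotic array's median of 124 and were kept through the ripening array alone. CYP71Z7 had a log2 ratio of 4.77, at least 17.3-fold higher at ripening. CYP701A8 had 4.27, at least 15.2-fold higher. CYP99A2 had 2.48, at least 5.26-fold higher. CYP99A3, the member with both signals above the dim limit, had 1.66, and LOC4341447 had 0.97, or 0.00 with signals below 163 raised to it. The median of the 5 was 2.48, beside -0.01 over all kept genes.

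The second pair of arrays at these stages, the RNAi line at ripening against the mutant at meiosis, shares no array with the wild-type pair. It differs from it in genotype at both stages, and the plants at ripening carried a construct and those at meiosis a mutation. Of the 4 genes kept, all 4 were higher at ripening, where 15.7% of 16750 kept genes were higher and 16.8% lower. CYP71Z7, CYP99A2 and CYP99A3 lay below the mutant array's median of 51.8 and were kept through the ripening array alone. The direction of these genes was thus fixed by the filter. CYP71Z7 had a log2 ratio of 6.82, CYP99A2 5.30, CYP701A8 4.57 and CYP99A3 4.55. Their bounds were at least 37.8-fold, 6.85-fold, 14.5-fold and 3.95-fold in that order. LOC4341447 had a ratio of 0.21 and was not kept.

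Tissue markers differed between the stages, endosperm markers in the direction of the P450 genes and tapetum markers in the opposite direction. All 6 measured endosperm markers, storage protein and starch genes, were higher at ripening in wild type, with a median of 8.80, and all 5 tapetum markers were lower, with -6.83. Of the endosperm markers, GLUA-1, GBSS1, RP6 and GLUA-2 were read from probe sets of a kind that can bind related transcripts. GLUA-2 had 7.71, but 0.83 from a probe set less open to them. The summed endosperm signal was 236924 in RNAi panicles and 168708 in wild type at ripening; at meiosis it was 371 in the mutant against 499 in wild type. The summed tapetum signal was 165 and 367 at ripening and 88313 and 60894 at meiosis in the same order. The endosperm and tapetum markers thus differed between the stages. The meiosis markers did so less evenly. Of 4 measured, 3 were lower at ripening in wild type, or 2 with signals below 163 raised to it, and PAIR2 had -0.15. In bulk panicles, more cells of a type and more RNA per cell cannot be told apart, and the part of tissue make-up in the P450 differences was not tested.

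The other genes of the pathway were read from lists. The momilactone list held 3 measured genes, all 3 higher at ripening in wild type. CPS4, which makes syn-copalyl diphosphate, read 796 at ripening against 9.51 at meiosis, which is at least 4.88-fold higher. KSL4, which makes syn-pimaradiene, read 554 and 5.18, at least 3.39-fold higher. MAS, a dehydrogenase of the last step to momilactone A, read 684 and 112, at least 4.18-fold higher. Among 4 further diterpene synthases, 3 were kept and all 3 were higher. CPS2, the ent-copalyl diphosphate synthase of the phytoalexin branch, read 2875 at ripening against 6.08 at meiosis, which is at least 17.6-fold higher. The cassadiene synthase KSL7 read 550 and 39.5, at least 3.37-fold higher. KSL5 read 268 and 40.7, at least 1.64-fold higher and thus under 2-fold at the bound, and the sandaracopimaradiene synthase KSL10 read 38.1 and 16.4 and was not kept.

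Of 5 other diterpenoid P450 genes, 3 were higher at ripening in wild type and none lower, with a median log2 ratio of 2.33. CYP71Z6, a hydroxylase of ent-isokaurene, had 3.74, CYP701A9 had 2.71 and CYP76M5 had 2.33, and with signals below 163 raised to it they had 1.42, 0.23 and 0.45. CYP76M8, an enzyme of several phytoalexin branches, had 0.85, and CYP76M6, an oryzalexin enzyme, had 0.31. The probe set of CYP76M8 is of a kind that can bind related transcripts, so its signal may include those of its paralogs.

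In the gibberellin branch 5 of 6 measured genes were kept and none was 2-fold different between the stages in wild type, with a median of -0.40, while KAO with -1.09 was not kept. CYP701A6, the ent-kaurene oxidase of gibberellin synthesis and a neighbour of CYP701A8, read 688 in RNAi panicles and 818 in wild type at ripening; at meiosis it read 461 in the mutant against 582 in wild type. Its stage ratio in wild type was 0.47, beside 4.27 for CYP701A8, but its probe set, like that of CYP76M8, is of a kind that can bind related transcripts. The gibberellin synthases CPS1 and KS1 had -0.44 and 0.10, the oxidase GA20OX2 -0.40 and the gibberellin-inactivating P450 EUI1 -0.56. Of 7 regulators 3 were higher at ripening in wild type, WRKY76 with 3.77, JAMYB with 2.41 and WRKY71 with 1.92, and bZIP79 was lower with -1.39. With signals below 163 raised to it WRKY76 had 1.38, JAMYB 2.45 and bZIP79 -1.22, while in the first setting TGAL1 had 0.96, WRKY62 0.39 and TGA2.1 0.34. Of 12 defence genes 5 were higher and 2 lower, led by the chitinase genes CHT4 with 6.98, at least 65.0-fold, CHT2 with 6.35, at least 47.2-fold, and CHT1 (LOC4342115) with 5.67. The 2 lower genes, named after their values were seen, were the oxidase gene RBOHB with -2.51 and another gene listed as the chitinase CHT1 (LOC4338719) with -1.60, at least 2.83-fold lower, so the chitinase genes differed in direction. Plastid precursor genes were higher in 2 of 5 cases, DXR with 1.27 and ISPG with 1.04, or 0.84 with the median ratio of all probe sets set to 0, while ISPF had 0.77, ISPH 0.48 and ISPE -0.46.

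Among 19 other genes with a P450 name, which include CYP701A6, EUI1 and the gibberellin P450 KAO, 14 were kept, 2 higher and 4 lower at ripening in wild type, with a median of -0.17. The abscisic acid hydroxylase ABA8OX1 had 3.24 and the brassinosteroid enzyme C6-oxidase 1.39, followed by the allene oxide synthase AOS (LOC4332121) with 0.89. CYP703A3, a hydroxylase of pollen wall formation in the tapetum, had -7.47, at least 39.3-fold lower, CPD2 -2.86, CYP724B1 -2.26 and CYP734A6 -1.45, the last 3 all genes of brassinosteroid metabolism.

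In the RNAi line at ripening over the mutant at meiosis, the same lists were read again. All 3 momilactone genes, all 4 diterpene synthases and 4 of the 5 other diterpenoid P450 genes were higher, with medians of 5.04, 2.63 and 2.08, beside 0.01 over all kept genes. With signals below 163 raised to it all 3 momilactone genes, 2 of the 4 synthases and 2 of the 5 P450 genes passed 2-fold, and the medians were 2.28, 1.10 and 0.59. The calls lost were those of KSL5 with 0.53, KSL10 with 0.13, CYP76M5 with 0.59 and CYP701A9 with 0.00. CPS2 had the largest ratio of these, 6.98, and was at least 24.3-fold higher. None of the 6 gibberellin genes was 2-fold different, with a median of -0.04.

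**Figure D2:**
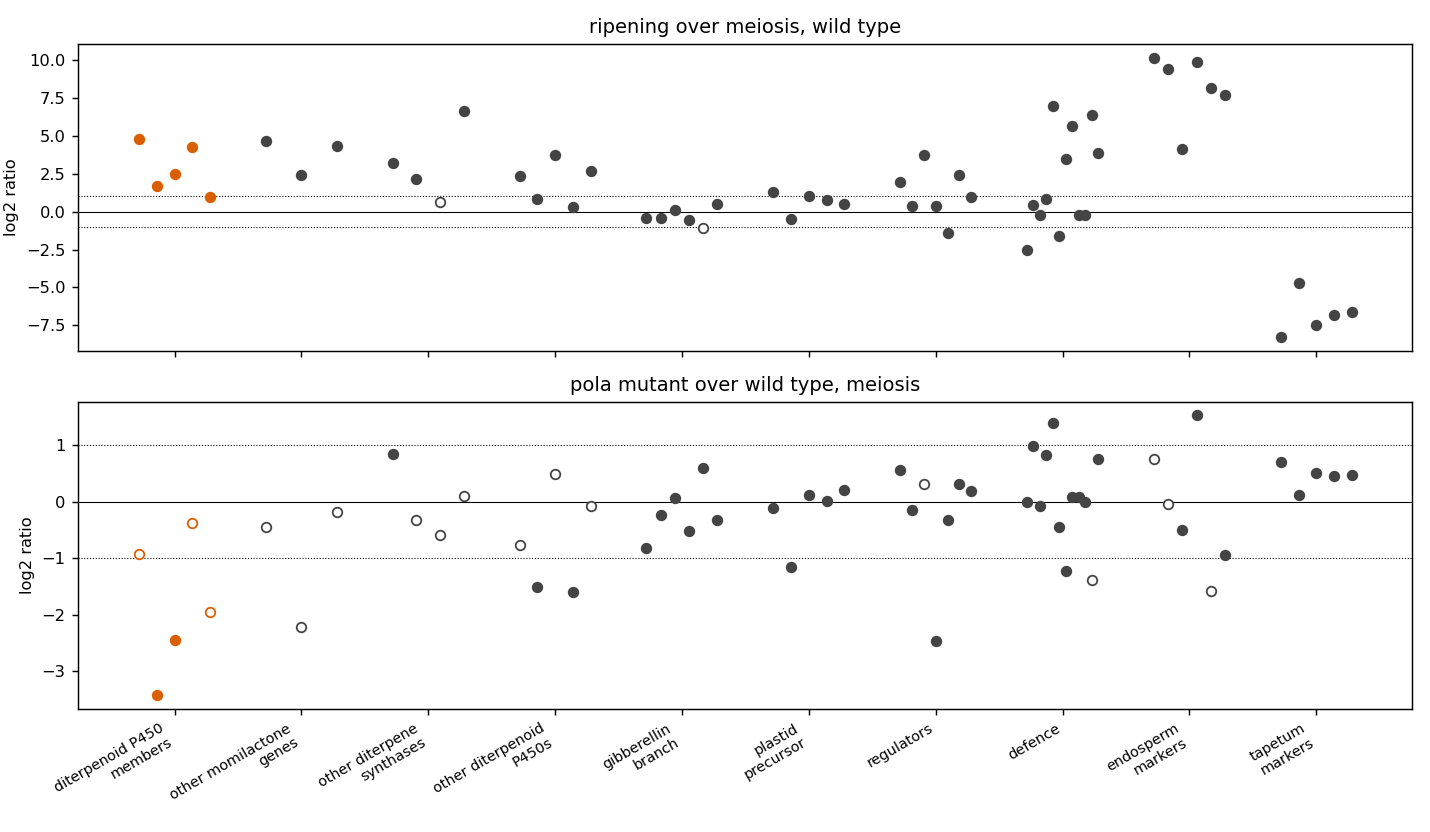
log2 ratios of the 5 P450 members (orange) and of genes of other lists, for ripening over meiosis in wild type (upper panel) and pola mutant over wild type at meiosis (lower panel). Filled points were kept by the signal filter, open points were not, and dotted lines mark 2-fold; at ripening the gibberellin branch lies near 0 with a median of -0.40 while the members have a median of 2.48.

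In the reference table, of assembly ASM3414082v1 and used here for names and neighbours only, 4 of the 5 members lay in runs of related genes. On chromosome 4, the genes from CPS4 to CYP99A2 were 9, of which 5 were measured: CPS4, CYP99A3, MAS, KSL4 and CYP99A2. All 5 were higher at ripening in wild type, with a median of 2.48, which is the ratio of CYP99A2 itself. All 5 were also higher in the RNAi line over the mutant, with 5.04. Over all kept genes, 15.4% and 15.7% were higher in these comparisons. All 5 passed 2-fold in both comparisons with signals below 163 raised to it, with medians of 2.07 and 2.28. On chromosome 2, the 14 genes from CYP76M5 to CYP76M6 held 9 measured ones, among them CYP71Z7 between CYP71Z6 and CPS2. Of these, 7 were higher at ripening in wild type and none lower, with a median of 3.19, or 5 with a median of 1.42 once dim signals were raised to 163. CYP701A8 stood on chromosome 6 between CYP701A9 and CYP701A6, and of the 3 measured genes of that run 2 were higher, or 1, CYP701A8, once dim signals were raised. Apart from 1 unnamed gene on chromosome 2, the measured genes of these runs are members or genes of the lists above. The runs thus repeat values already given and are no further support.

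The table placed LOC4341447 elsewhere on chromosome 6, away from the other CYP76M genes, with 2 locus names as synonyms. Published maps place CYP76M7 within the chromosome 2 cluster, which is the ground for the doubt over its identity. An unnamed gene of the chromosome 2 run between CYP76M8 and KSL7, LOC4329723, was chosen after its values were seen. It read 1236 in RNAi panicles and 1344 in wild type at ripening. At meiosis it read 1.50 in the mutant against 83.7 in wild type. Its stage ratio in wild type was 3.67, or 3.04 with signals below 163 raised to it. That pattern, bright at ripening and dim at meiosis, differs from the dim signals of LOC4341447.

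**Figure D3:**
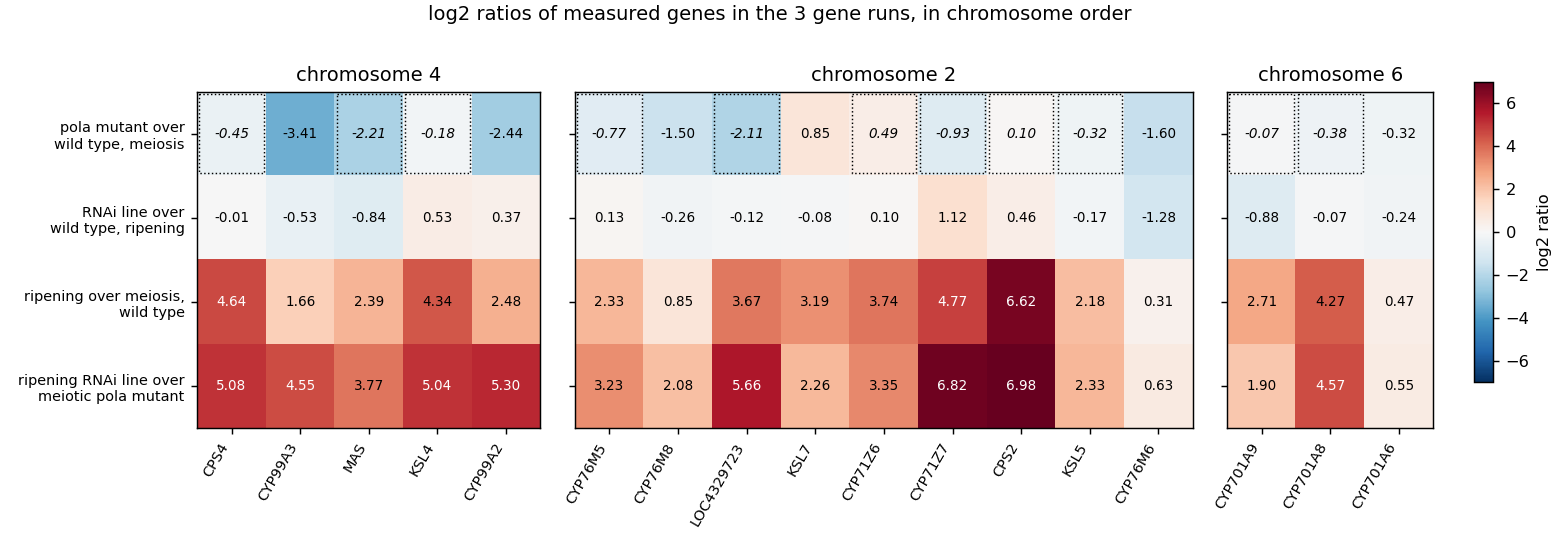
log2 ratios in 4 comparisons for the measured genes of the runs on chromosomes 4, 2 and 6, in chromosome order. Dotted boxes with italic figures mark genes not kept by the signal filter; CYP99A3 with -3.41 and CYP99A2 with -2.44 are the kept genes of the chromosome 4 run in the mutant comparison.

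Setting the pola mutant against wild type at meiosis asks which of these transcripts differ where POLA is mutated. Of the 5 genes, 2 were kept, CYP99A3 with a log2 ratio of -3.41 and CYP99A2 with -2.44, and both were lower in the mutant. Both passed the filter through the wild-type array alone, with 282 and 134 against its median of 124. On the mutant array they read 5.26 and 5.65, below its median of 51.8. With such mutant signals a kept gene could only be lower, so their shared direction was fixed by the filter. The 3' to 5' GAPDH ratio also differed between these arrays, 4.22 in the mutant against 2.04 in wild type. In the same comparison 4.34% of 15779 kept genes were lower and 2.26% higher. This balance turned with scaling, to 224 lower and 750 higher genes after quantile normalization against 685 lower and 357 higher here. Both CYP99A genes stayed at least 2-fold lower after each of the 3 other scalings, but the mutant signals were at the control level. With signals below 163 raised to it CYP99A3 had -0.79, at least 1.72-fold lower, and CYP99A2 had 0.00, since its wild-type signal of 134 was itself dim.

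The members not kept at meiosis were LOC4341447 with -1.95, CYP71Z7 with -0.93 and CYP701A8 with -0.38, against a median of -0.99 for the controls not from rice. CYP71Z7 and CYP701A8 changed sign with other scalings, CYP71Z7 up to 0.21 and CYP701A8 up to 0.53. In the chromosome 4 run, MAS read 5.75 in the mutant against 112 in wild type, a ratio of -2.21 that was not kept. The synthase genes beside it were near background on both arrays, CPS4 with 0.70 and 9.51 and KSL4 with 1.85 and 5.18, and CYP99A3 was the 1 gene of the run with a wild-type signal above the dim limit at meiosis.

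Of the 5 other diterpenoid P450 genes, 2 were kept and both were lower in the mutant. CYP76M8 read 123 in the mutant against 389 in wild type, a ratio of -1.50 and at least 2.38-fold lower. CYP76M6 read 37.6 and 161, a ratio of -1.60 that was 0.00 with signals below 163 raised to it. CYP76M6 was kept through the wild-type array alone. KSL7 was the kept synthase and read 90.1 in the mutant against 39.5 in wild type, both dim, a ratio of 0.85. Over the alternative settings its ratio ran from 0.00, with signals below 163 raised to it, to 1.96. In the gibberellin branch none of the 6 kept genes was 2-fold different, with GA20OX2 at -0.81 and KAO at 0.59, and among the 16 other kept P450 genes none was either. Their extremes, besides KAO, were CYP87A3 with 0.65 and EUI1 with -0.52. Of the precursor genes, ISPE was lower with -1.15, or -0.72 with signals below 163 raised to it, and under 2-fold after all 3 other scalings, and the other 4 lay between -0.10 and 0.21.

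Of 7 measured regulators tied to phytoalexin synthesis or defence in rice, 6 were kept in the mutant comparison, 1 of them lower and none higher. WRKY62, a repressor of defence genes, read 4.96 in the mutant against 134 in wild type, a ratio of -2.47 that was 0.00 with signals below 163 raised to it. WRKY71 had 0.57, the jasmonate-responsive JAMYB 0.31, TGAL1 0.19, TGA2.1 -0.14 and bZIP79, which lowered phytoalexin levels when overproduced in rice cells, -0.33. Among 12 defence genes 11 were kept, with 1 higher and 1 lower. The chitinase gene CHT4 had 1.40, or 0.28 with signals below 163 raised to it. CHT3 had -1.22, at least 2.27-fold lower but under 2-fold after each of the 3 other scalings. The mean over its 2 probe sets gave -0.62, and the probe set read is of a kind that can bind related transcripts. NPR1, a regulator of salicylic acid responses, read 600.3 in the mutant against 290.1 in wild type, a ratio of 0.99, or 1.05 without the pseudocount.

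Markers of other cell types were read in the mutant comparison too. None of 5 tapetum markers and none of 4 meiosis markers was 2-fold different, with medians of 0.48 and -0.35. Of 3 endosperm markers kept, RP6 was higher with 1.53, or 0.00 with signals below 163 raised to it. Of 2 leaf markers RBCS was higher with 1.55, but had -0.14 from a probe set less open to related transcripts. Of 2 root markers IRT1 was higher with 2.64, or 0.19 with dim signals raised. The part of such tissue in the P450 ratios was not tested.

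**Figure D4:**
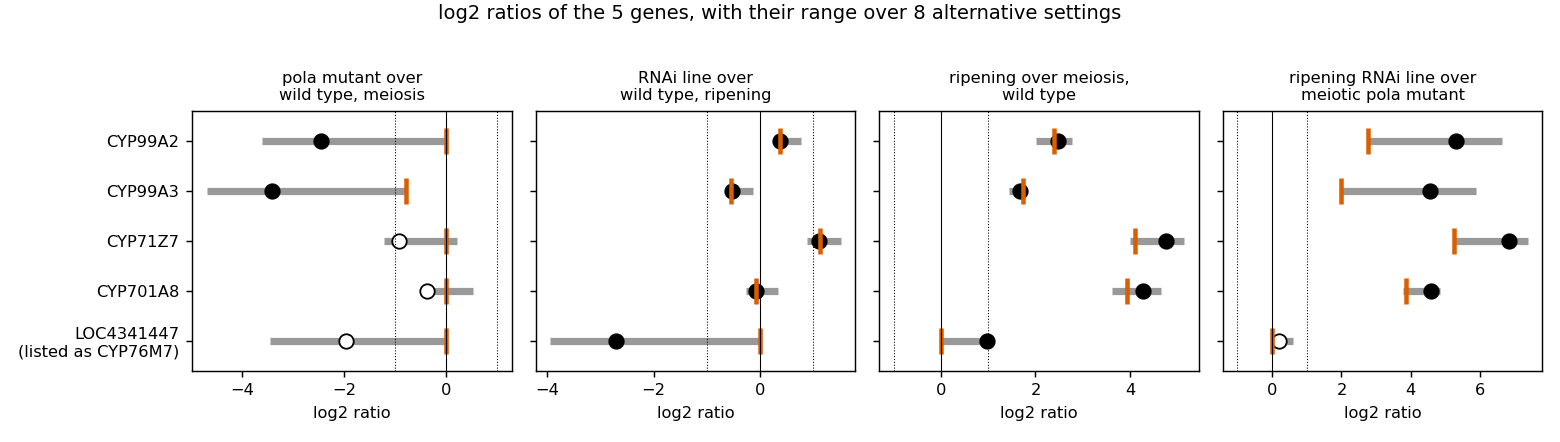
log2 ratios of the 5 genes in 4 comparisons, with filled points for genes kept by the signal filter and open points for those not kept. Grey bars give the range over 8 alternative settings, orange ticks the ratio with signals below 163 raised to it, and dotted lines 2-fold; the mutant ratios of CYP99A3 and CYP99A2 shrink to -0.79 and 0.00 at the tick, while the stage ratios of 4 genes stay above 1.

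Setting the POLA RNAi line against wild type asks the same question in the grain-filling panicle, where 4 of the 5 genes were bright. All 5 were kept, with 1 at least 2-fold higher and 1 lower, where 3.63% of 15912 kept genes were higher and 7.36% lower. CYP71Z7 was the higher gene, with 6178 in RNAi panicles and 2830.15 in wild type, 2.18-fold and a log2 ratio of 1.12. Both signals were far from background, and quantile normalization gave a ratio of 0.89 and loess centring 0.91, under 2-fold. LOC4341447, whose identity as CYP76M7 is not settled, was the lower gene, with -2.71, or 0.00 with signals below 163 raised to it, beside a median of -1.08 for the controls not from rice. LOC4341447 was kept through the wild-type array alone, where it read 164 against a median of 163.

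The other 3 members were under 2-fold, CYP99A3 with -0.53, CYP99A2 with 0.37 and CYP701A8 with -0.07, the last of which turned to 0.33 under another scaling. The median over all kept genes was 0.09. In the chromosome 4 run, MAS read 373 in RNAi panicles and 684 in wild type, a ratio of -0.84, while KSL4 had 0.53 and CPS4 -0.01, so none of the 5 measured genes was 2-fold different. In the chromosome 2 run, CPS2 read 3976 and 2875, a ratio of 0.46, and besides CYP71Z7 the gene past 2-fold was CYP76M6 with -1.28, which was -0.34 with signals below 163 raised to it.

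Elsewhere in the pathway, KSL10 was higher in the RNAi line, with 178 against 38.1 and a ratio of 1.71, or 0.13 with signals below 163 raised to it. KAO, which makes a gibberellin precursor, read 217 in RNAi panicles and 38.2 in wild type, a ratio of 1.96 that became 0.41. The other 5 gibberellin genes were under 2-fold, and so were all 5 precursor genes and all 12 defence genes, of which NPR1 came nearest with -0.95, or -1.03 without the pseudocount. Of 14 kept genes among the other P450s, 1 was higher, KAO, and 2 were lower. ABA8OX1 had -2.00, and AOS (LOC4332121) had -2.09, or -0.84 with signals below 163 raised to it. Of the 7 regulators, WRKY71 was lower with 1170 in RNAi panicles and 2895 in wild type, a ratio of -1.29, or -0.89 with the median ratio of all probe sets set to 0. All 6 endosperm markers were kept and none was 2-fold different, with a median of 0.46, and neither were the leaf and root markers, while 1 of 5 tapetum markers was kept, C4 with -1.02, or -0.15 with signals below 163 raised to it. The GAPDH ratio was 3.32 in RNAi panicles and 2.01 in wild type. The split of all genes turned here too, from 577 higher and 1171 lower to 1312 higher and 555 lower after quantile normalization.

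For each member the genes with the most similar profile over the 4 arrays were named, among 2283 genes with a descriptive name and a signal of at least 163. Likeness was the root mean square difference of log2 signals, with 23.4 added to each signal, after centring each gene on its mean. For CYP99A3 the nearest gene was MAS, at 0.44, followed by BC1L9 and OsRAA1. CYP99A2 was nearest to the aquaporin gene OsPIP1;3 at 0.49, the cystatin gene OC-IV and CHT3. CYP71Z7 was nearest to OsPM19L1 at 0.31, the late embryogenesis gene LEA19 and MFT2. CYP701A8 was nearest to the alcohol dehydrogenase gene Adh2 at 0.16, the beta-glucosidase gene BGLU22 and the starch branching enzyme gene Q-enzyme. LOC4341447 was nearest to OsWNK3 at 0.22, CBF1 and OsTPP10, all of them dim on the RNAi and mutant arrays.

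Among the members, the closest pair was CYP99A2 and CYP99A3, with a difference of 0.61, and the farthest was CYP71Z7 and LOC4341447, with 2.96. CYP701A8 lay at 0.79 from CYP99A2 and at 0.83 from CYP71Z7. With 4 arrays that every gene shares, these values describe the profiles and carry no p-value.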

How the data were processed

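The authors deposited intensity values of 1 array per group, which the submitters' processing notes credit to MAS5 and which are linear. The version of MAS5 and the detection calls are not given in the sources. No value was below 0. A label of the RNAi sample speaks of wild lines, but its other labels give RNAi, and these were followed. After removal of 187 controls, 57194 probe sets remained, of which 22436 were paired with exactly 1 gene, 95 with several and 34663 with none listed. Each of 17905 genes was read from its brightest probe set by mean over the 4 arrays. The pseudocount was the 25th percentile of all signals.

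The members, the 12 gene lists and the comparisons were chosen with earlier results of these data known. From the lists, 8 matches to unrelated or doubly used names were removed. Named were the members, the genes of the pathway and regulator lists, up to 3 defence genes per comparison, up to 4 other P450 genes each way, and the 3 nearest profiles per member; exceptions are marked. The lists of meiosis, leaf and root markers held 4, 2 and 2 measured genes. In wild type at ripening over meiosis, 3, none and none were lower and none, 1 and 1 higher. The higher leaf gene, RBCS, had 1.53, but 0.66 from a probe set less open to related transcripts. The higher root gene, IRT1, had 2.61, or 0.16 with signals below 163 raised to it.

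No test was run. The 10 alternatives were 3 scalings (median ratio at 0, quantile, loess with a span of 0.3), pseudocounts of 5.85 and 103, a floor at 163, no filter or one at the 75th percentile, and 2 other choices of probe set. The ratio code was tested on simulated data. Arrays were compared in 4 comparisons that share arrays: each wild-type array serves a genotype and a stage comparison. The number of arrays limits the precision. Software was matplotlib 3.10.9, statsmodels 0.14.6, scipy 1.17.1, pandas 2.3.3 and numpy 2.4.6 under Python 3.11.15.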

Additional observations from a re-analysis of the deposited data

Results flagged for a closer look

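CYP99A2 and CYP71Z7 had ratios of opposite sign in the 2 genotype comparisons as reported, and neither contrast held in every setting. CYP99A2 had a log2 ratio of -2.44 for the pola mutant over wild type at meiosis and 0.37 for the RNAi line over wild type at ripening. CYP71Z7 had -0.93 for the mutant over wild type and 1.12 for the RNAi line over wild type. Its mutant ratio lay near the -0.99 of the controls not from rice and was 0.08 after quantile normalization, 0.21 after loess centring and 0.00 with signals below 163 raised to it, so that the signs no longer differed. CYP99A2 also had 0.00 in the mutant with dim signals raised. With 1 array per group the difference was not tested, and stage and kind of genetic change differ together between the comparisons and cannot be told apart. CYP71Z7 was not kept at meiosis.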

How the results depend on the processing

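Of 40 counts of members past 2-fold, over 4 comparisons and 10 alternatives, 34 stayed within 1.5 times the reported count. The stage counts of 4 in wild type and 4 in the RNAi line over the mutant were among them, with 5 in wild type at the smaller pseudocount. The mutant count of 2 became 0 with the common floor and 0 with the 75th percentile filter, which kept no member. The RNAi count of 2 became 1 after quantile normalization, 1 after loess centring, 1 with the common floor and 1 with the 75th percentile filter: the first pair left LOC4341447 lower, the second CYP71Z7 higher. Of 160 single ratios under alternatives, 7 were no longer past 2-fold, 2 newly so and none that passed 2-fold changed sign. Setting the median ratio of all probe sets at 0 moved the median of all genes by 0.31 in the mutant comparison, 0.40 in the RNAi comparison and -0.20 between the wild-type stages. Each member had 1 probe set, so the choice of probe set changed no member. No paired analysis was possible because each group had 1 array, and no replicate could be left out. Signal over background limits every value below 163.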
